A study of Saccharomyces cerevisiae with 12 samples.

Results

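The 8 genes described here code for the lysine pathway of Saccharomyces cerevisiae: LYS20 (YDL182W), LYS21 (YDL131W), LYS4 (YDR234W), LYS12 (YIL094C), LYS2 (YBR115C), LYS9 (YNR050C), LYS1 (YIR034C) and the regulator LYS14 (YDR034C). They were taken by ORF name from a table of 6150 open reading frames (ORFs), and were selected on their measured values, namely the difference between carbon monoxide (CO) and nitrogen (N2) at each time. All 8 had a value on all 12 arrays, as did 5672 ORFs in total. The cells were of the haploid strain BY4741, which carries the lysine genes intact and has deletions, some partial, in URA3, MET17, LEU2 and HIS3. They were grown on glucose, moved on nylon membranes to solid YP acetate, a rich medium with a respiratory carbon source, and kept under pure N2, under CO or in room air. For each gas there was 1 array at 15, 30, 45, 60 and 120 min and at 24 h, with RNA of gas-exposed cells in the Cy5 channel and RNA of air-exposed cells of the corresponding time in the Cy3 channel. There was no dye swap and no second array of any gas and time, so the exposure times took the place of replicates (n = 6). Each SD over times and each error against air below is a spread between times. In the comparisons of one period with another, the CO and N2 arrays of a time also counted as replicates of each other.

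Fungi build lysine through the alpha-aminoadipate pathway. Its first steps, largely mitochondrial, condense acetyl-CoA with 2-oxoglutarate to homocitrate and carry it through homoaconitate and homoisocitrate to 2-oxoadipate, in a chain of reactions that mirrors the start of the citric acid cycle. The later steps reduce alpha-aminoadipate and join it to glutamate as saccharopine, which is split to give lysine. The pathway is controlled by feedback of lysine on homocitrate synthase and by the activator Lys14, which responds to the intermediate alpha-aminoadipate semialdehyde, and its genes are among those reached by the general amino acid regulator Gcn4.

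Values are log2 ratios of gas over air, where base 2 was an assumption that rests on how far the values spread, and the direction was read from the dyes. The median ratio of an array over the 5672 ORFs lay between -0.17 and 0.01, and the SD over ORFs widened from 0.337 on the narrowest 15 min array to 1.28 at 24 h. The 4 genes deleted in whole or in part gave a range to set the members against: their 48 ratios lay between -0.91 and 0.67, and their 24 differences between CO and N2 lay between -0.62 and 0.87. HIS3, of which a part remains in BY4741, set both lower ends, which were -0.70 and -0.59 over the other 3 genes. The number of arrays limits the precision, and ratios of arrays taken in bulk cannot tell less RNA per cell from fewer cells that hold it.

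LYS20 and LYS21 code for the homocitrate synthase isozymes, which catalyse the committed step. LYS20 was higher in CO than in N2 at all 6 times. Going from 15 min to 24 h, its ratio to air in CO was 0.37, 0.73, 0.81, 1.09, 0.24 and 0.05, while in N2 it was -0.06, -0.33, -0.30, 0.72, -0.78 and -1.10. All 6 CO values stood above the air reference, while 5 of 6 N2 values stood below it. Only CO at 30, 45 and 60 min and N2 at 60 min and 24 h lay outside the range of the deleted genes. With HIS3 left out, N2 at 120 min did so too. The ranges of the gases overlapped through the N2 array of 60 min. CO minus N2 was 0.43, 1.06, 1.11, 0.37, 1.02 and 1.15, a mean of 0.86 ± 0.36 (log2, SD over 6 times), which comes to 2.08-fold at 30 min, 2.16-fold at 45 min, 2.03-fold at 120 min and 2.22-fold at 24 h. Those 4 differences lay above the range of the deleted genes. With quantile normalization LYS20 was still higher in CO at all 6 times, but only 30 and 45 min passed 2-fold (1.53 and 1.48), with 0.85 at 120 min, 0.71 at 24 h and 0.955 at 15 min. Since the genes were selected on this contrast, it is given as a description with no test.

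CO was higher at all 6 times in 2.54% of the ORFs, LYS20 and also IDP1, a gene of 2-oxoglutarate supply (mean difference 0.50), ARG1 (0.69), ARG8 (0.39) and ILV3 (0.46) among them; the last 3, of arginine and branched-chain synthesis, are named with their values known. CO was at least 2-fold higher at 4 or more times in 0.0529%, which are LYS20, TEF2 (YBR118W), a gene of translation elongation factor eEF1A, and YHB1 (YGR234W), the flavohemoglobin. TEF2 and YHB1 are named because the count is small, a choice made with their values known. Under quantile normalization LYS20 was not among the ORFs with 4 such times, since it had 2. The mean of LYS20 over the 6 times was reached or passed by 6 of 5672 ORFs, LYS20 included. At single times it ranked less far out, with 52 ORFs showing a larger difference at 45 min and 801 at 60 min. The genes were selected on this same contrast, and the cut of 4 times equals the count of LYS20. These shares and ranks therefore describe LYS20 and are no test of it.

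LYS21 gave a different picture from its paralog. In the same order of times it was 0.55, 1.00, 0.35, -0.49, -0.49 and 0.42 in CO, and in N2 0.97, 0.86, 0.12, 1.30, -0.49 and -1.39. The gases lay close together at 30, 45 and 120 min and crossed between the others. At 60 min LYS21 was 3.46-fold higher in N2 (CO minus N2 of -1.79, with 15 ORFs farther down), and at 24 h it was 3.51-fold higher in CO (1.81, with 19 ORFs farther up, and 1.11 with quantile normalization). Its mean difference was therefore -0.01 ± 1.16 (SD over 6 times). A turn of this kind, at least 2-fold one way at one time and the other way at another, was seen in 1.82% of the ORFs. Each of the extreme points rests on a single pair of arrays.

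**Figure D1:**
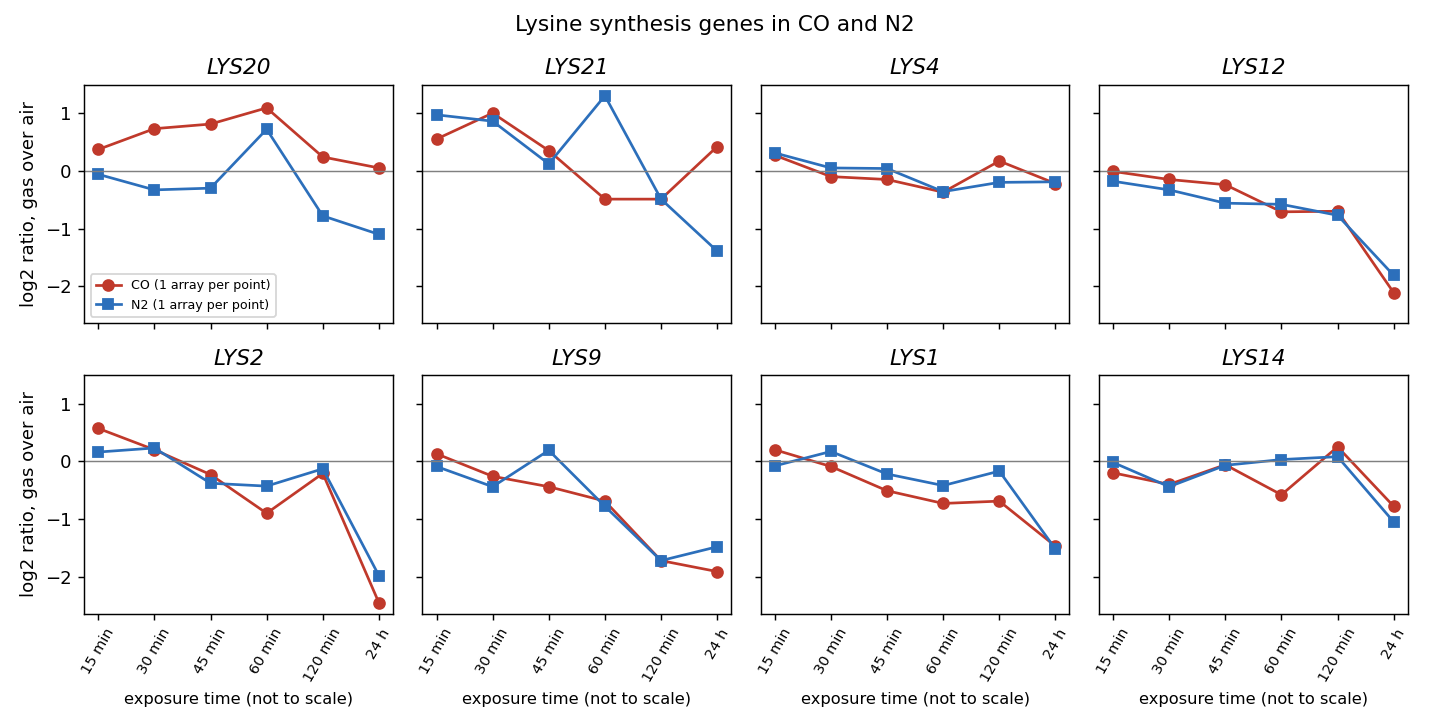
Log2 ratio of gas over air (vertical axis) against exposure time in order, not to scale (horizontal axis), for each lysine gene in CO (red circles) and N2 (blue squares), 1 array per point. LYS20 runs higher in CO at all 6 times, LYS21 crosses over with N2 at 1.30 at 60 min and CO at 0.42 at 24 h, and the other genes follow each other closely in the gases, with LYS12, LYS2, LYS9 and LYS1 lowest or close to lowest at 24 h.

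The ratios of the isozyme genes to air can also be set against each other within an array. The ratio of LYS20 minus that of LYS21 was -0.18, -0.27, 0.46, 1.58, 0.73 and -0.37 in CO, in order of time, and -1.03, -1.19, -0.42, -0.58, -0.29 and 0.29 in N2. In N2 the ratio of LYS20 to air was thus below that of LYS21 at every time but 24 h. In CO the ratio of LYS20 was above that of LYS21 from 45 to 120 min. Such ratios do not give the amount of one transcript relative to the other. LYS20 and LYS21 are close in sequence and the sources used here do not give the probes, so either ORF could carry signal of the other. The part of shared signal in these values was not tested.

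The other 6 members were less than 2-fold apart between the gases at every time. Their 36 differences lay between -0.63 and 0.41, with an SD of 0.28, against 0.38 for the 24 differences of the deleted genes and 0.36 for the 18 without HIS3. Whether the noise of the deleted genes matches that of expressed genes was not tested. LYS4, which codes for homoaconitase, an iron-sulfur enzyme of the mitochondria, had differences between -0.19 and 0.37. LYS12, the gene of homoisocitrate dehydrogenase, lay between -0.30 and 0.32. LYS2, coding for alpha-aminoadipate reductase, lay between -0.47 and 0.41. The genes of the saccharopine dehydrogenases, LYS9 for the step that forms saccharopine and LYS1 for the step that releases lysine, lay between -0.63 and 0.22 and between -0.52 and 0.28. The activator gene LYS14 lay between -0.61 and 0.27.

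Counted over the pathway, 1 of 8 members was at least 2-fold higher in CO at 30, 45 and 120 min each (LYS20) and 2 at 24 h (LYS20 and LYS21), while 1 was at least 2-fold higher in N2 at 60 min (LYS21). Over all ORFs, CO was at least 2-fold higher in 0.247% at 15 min, 2.77% at 30 min, 1.76% at 45 min, 1.55% at 60 min, 1.52% at 120 min and 4.02% at 24 h. N2 was at least 2-fold higher in 0.264%, 1.89%, 2.77%, 2.72%, 2.82% and 11.8% at the same times. At 1 or more of the 6 times 27.8% of the ORFs were at least 2-fold apart, as were 2 of 8 members. The median difference over the 8 members was 0.20, 0.09, 0.08, -0.22, 0.04 and 0.01 in order of time, against -0.02, 0.00, 0.00, -0.03, -0.01 and -0.06 over all ORFs.

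**Figure D2:**
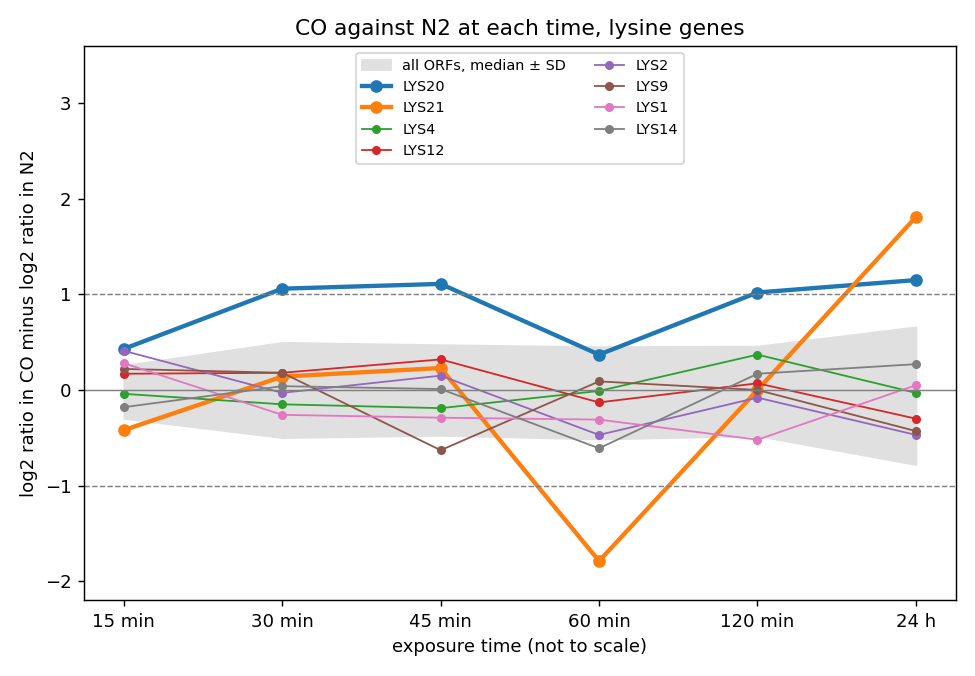
Difference between the log2 ratio in CO and that in N2 (vertical axis) at each exposure time in order, not to scale (horizontal axis), for the 8 lysine genes, with 1 array per gas behind each point. The grey band is the median ± SD over 5672 ORFs and the dashed lines mark a 2-fold difference. LYS20 passes 2-fold upward at 30, 45 and 120 min and 24 h, and LYS21 goes from -1.79 at 60 min to 1.81 at 24 h.

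The course of the pathway away from air was tested on the mean of CO and N2, which is another measure than the difference on which the genes were selected but comes from the same arrays. Whether it is independent of that selection was not tested. The question is how the ratios of the lysine genes to air cells of the corresponding time moved over the exposure. A fall or rise below is one of this ratio. The air cells had also been moved from glucose to acetate, so a change in them enters it, and their part was not tested. LYS12 and LYS9 fell below air over the 6 times. LYS12 was -0.01, -0.15, -0.24, -0.71, -0.70 and -2.11 in CO, in order of time, and -0.18, -0.33, -0.56, -0.58, -0.77 and -1.81 in N2, below air on all 12 arrays. Its mean over times and gases was -0.68 ± 0.23 (log2, SE, n = 6 times, limma adjusted p = 0.0467). LYS9 was 0.13, -0.26, -0.44, -0.69, -1.72 and -1.91 in CO and -0.09, -0.44, 0.19, -0.78, -1.72 and -1.48 in N2, and was the only member already past a 2-fold decrease at 120 min in both gases. Its mean was -0.77 ± 0.26 (limma adjusted p = 0.0462).

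Thus 2 of 8 members were called lower and 0 higher over the 6 times, where limma called 20.9% of all ORFs lower and 17.0% higher. The median over the members was -0.37, against -0.03 over all ORFs. The means of LYS1 and LYS2 were -0.46 ± 0.20 (adjusted p = 0.0986) and -0.46 ± 0.31 (adjusted p = 0.252), and that of LYS14 was -0.27 ± 0.15 (adjusted p = 0.175). LYS4, LYS20 and LYS21 had means of -0.06, 0.12 and 0.23 (adjusted p of 0.41 to 0.68), and with array weights LYS21 was called higher (0.50, adjusted p = 0.0154). Without 24 h the means of LYS1, LYS2 and LYS14 were -0.25, -0.11 and -0.14, and with array weights those of LYS1 and LYS2 were -0.22 and -0.10. The calls of LYS12 and LYS9 were each lost without 30, 45, 60 or 120 min (highest adjusted p = 0.111 and 0.13), that of LYS9 also without 24 h (0.079) or with array weights (0.0643, at -0.37), and that of LYS12 with the 15 min ratios subtracted (0.0839); the mean of LYS12 was -0.42 without 24 h and -0.38 with array weights. With exposure time as a block, which takes the spread that the gases share over time out of the error, LYS12, LYS9, LYS1, LYS2 and LYS14 were called lower (adjusted p = 7.29e-06, 9.03e-06, 0.000176, 0.000285 and 0.00654) among 3912 ORFs called, against 2151 without it.

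LYS20, LYS12, LYS2, LYS1 and LYS14 had their lowest value of each gas at 24 h, and LYS21 had it there in N2 only. LYS9 in N2 was lowest at 120 min and LYS4 in both gases at 60 min. LYS2 was 0.57, 0.20, -0.23, -0.90, -0.21 and -2.45 in CO, in order of time, and 0.16, 0.23, -0.38, -0.43, -0.13 and -1.98 in N2, so that in each gas the 24 h array lay below all 5 earlier ones. LYS1 was 0.20, -0.09, -0.51, -0.73, -0.69 and -1.47 in CO and -0.08, 0.17, -0.22, -0.42, -0.17 and -1.52 in N2, again lowest at 24 h in both gases. LYS14 was -0.20, -0.40, -0.06, -0.58, 0.25 and -0.78 in CO and -0.02, -0.44, -0.07, 0.03, 0.08 and -1.05 in N2. Through 120 min the activator gene lay within the range of the deleted genes. At 24 h it lay below that range in N2, and in CO below it once HIS3 was left out.

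Set against the earlier times, LYS2 at 24 h fell by 2.07 ± 0.22 (log2, SE, limma adjusted p = 3.26e-05) and LYS12 fell by 1.54 ± 0.17 (adjusted p = 3.75e-05). LYS1 fell by 1.22 ± 0.18 (adjusted p = 0.00023), LYS9 fell by 1.19 ± 0.31 (adjusted p = 0.00741) and LYS14 fell by 0.79 ± 0.22 (adjusted p = 0.0114). The CO and N2 arrays of 24 h counted as replicates in these p-values, though they may share air cells. In all, 5 of 8 members were called lower and 0 higher, where 25.1% of all ORFs were called lower and 22.5% higher. The members' median was -1.01 against -0.06 over all ORFs. LYS20 stood at -0.78 ± 0.33 (adjusted p = 0.0705, and 0.0258 without 60 min or 0.00311 without 120 min), and LYS21 at -0.83 ± 0.49 (adjusted p = 0.179). LYS4 stood at -0.17 ± 0.19 (adjusted p = 0.497).

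At 24 h 4 of 8 members, LYS12, LYS2, LYS9 and LYS1, were at least 2-fold below air in both gases, as were 14.3% of all ORFs. The 24 h arrays had the widest ratios of the series, and quantile normalization, which gives all arrays 1 distribution, kept the calls of LYS2 and LYS12, at -1.30 and -0.74 (adjusted p = 0.00815 and 0.0198), and ended those of LYS1, LYS9 and LYS14, at -0.60, -0.54 and -0.29 (0.0883, 0.239 and 0.413). With the gases averaged so that 24 h counts as 1 value, LYS9 and LYS14 were lost (0.188 and 0.0552), and with array weights LYS14 (0.064).

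Part of the decrease came within the first 2 h. Between 15 and 30 min and 60 and 120 min, LYS9 fell by 1.06 ± 0.28 (log2, SE, limma adjusted p = 0.0306), LYS2 fell by 0.71 ± 0.20 (adjusted p = 0.0414), LYS1 fell by 0.55 ± 0.16 (adjusted p = 0.0462) and LYS12 fell by 0.52 ± 0.15 (adjusted p = 0.0455). These 4 were called lower and 0 members higher, where 9.29% of all ORFs were called lower and 3.44% higher. LYS21 stood at -0.89 ± 0.44 (adjusted p = 0.195), but was called lower without 60 min (-1.335, adjusted p = 0.0325) and stood at -0.44 without 120 min. LYS4 stood at -0.32 ± 0.17 (adjusted p = 0.231), LYS14 at 0.21 ± 0.20 (adjusted p = 0.497) and LYS20 at 0.14 ± 0.30 (adjusted p = 0.778).

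All 4 of these calls lay close to the threshold. Each was lost without 15, 30 or 120 min and with quantile normalization (highest adjusted p = 0.416), those of LYS2, LYS12 and LYS1 also without 45 or 60 min (up to 0.152), that of LYS1 with median centring (0.0616), and those of LYS12 and LYS1 with exposure time as a random block (0.0504 and 0.0508). LYS9 was -0.57 without 120 min, LYS2 was -0.46 without 60 min and LYS12 was -0.29 with quantile normalization.

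**Figure D3:**
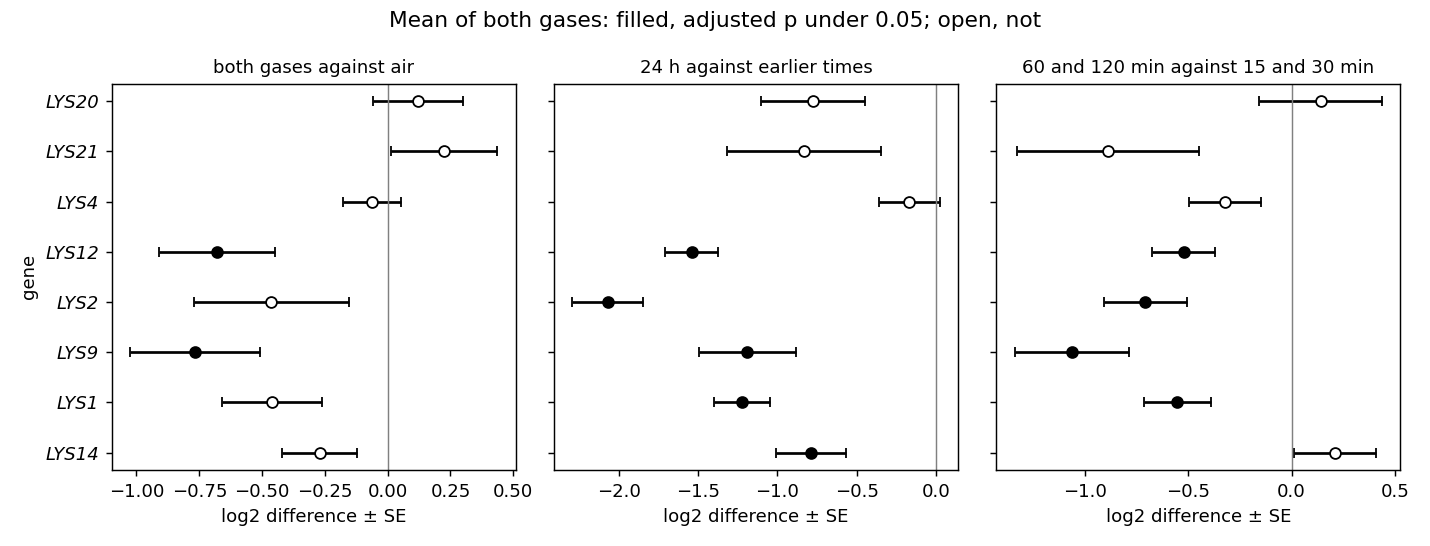
Log2 difference (horizontal axis, point) with its SE (bar) for each lysine gene (vertical axis) in the 3 limma comparisons: both gases against air, 24 h against the earlier times, and 60 and 120 min against 15 and 30 min. Filled points had an adjusted p under 0.05; LYS12 and LYS9 are filled in all 3 comparisons and LYS20, LYS21 and LYS4 in none.

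LYS4 was the flattest member. It was 0.27, -0.10, -0.15, -0.37, 0.17 and -0.22 in CO, in order of time, and 0.31, 0.05, 0.04, -0.36, -0.20 and -0.19 in N2, within the range of the deleted genes on all 12 arrays, with or without HIS3. LYS4 stands between LYS20 and LYS12 in the order of reactions, and its ratios spread less over the times than theirs. Whether the courses of these neighbouring steps differ was not tested. Across the 12 arrays, LYS12, LYS2, LYS9 and LYS1 correlated pairwise with Pearson's r of 0.64 to 0.96, and of 0.32 to 0.85 over the 10 arrays before 24 h. Before 24 h the pairs of LYS21 with these 4 had r of 0.47 to 0.66, and those of LYS4 with them 0.32 to 0.72. Those 10 arrays thus did not set the 4 apart from LYS21 and LYS4. The pairs with LYS20 had r of -0.19 to 0.46, and of -0.50 to 0.19 before 24 h. LYS12, LYS2, LYS9 and LYS1 were grouped after their values were seen. The 2 gases of a time may also share air cells, so the correlations are descriptions.

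ORFs outside the pathway whose 12-array profile was most like the mean profile of the 7 enzyme genes were CDC60 (YPL160W, r = 0.98), the cytosolic leucyl-tRNA synthetase, VPS74 (YDR372C, r = 0.98), which retains glycosyltransferases in the Golgi, GEA2 (YEL022W, r = 0.98), an exchange factor for Arf GTPases, RPG1 (YBR079C, r = 0.97), a subunit of translation initiation factor eIF3, NOG1 (YPL093W, r = 0.97), a GTPase of large-subunit ribosome assembly, and LEC1 (YPR097W, r = 0.97). Over the 10 arrays before 24 h their r was 0.90 to 0.95.

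Genes next to the pathway were called in both directions. Of 15 such genes, 4 were called higher and 1 lower over the 6 times, 5 higher and 4 lower at 24 h (over all ORFs 17.0% higher and 20.9% lower, and 22.5% and 25.1%), and 0 in either direction between 15 and 30 min and 60 and 120 min. For that last count limma gave 4 an unadjusted p under 0.05, and it called 2 with array weights and 3 without 60 min. GCN4 (YEL009C), whose protein activates amino acid synthesis and is made mostly under translational control, rose over air by 0.57 ± 0.13 (limma adjusted p = 0.0127). It stood highest on the 15 min arrays, at 0.96 in CO and 0.93 in N2, and at 24 h it was 0.23 and -0.12, a difference from the earlier times of -0.59 ± 0.20 (limma adjusted p = 0.0286). LYS5 (YGL154C), for the enzyme that attaches the phosphopantetheine arm Lys2 needs, went the other way from LYS2. It rose by 0.98 ± 0.18 over air (limma adjusted p = 0.0061) and by 1.05 ± 0.19 at 24 h against earlier times (adjusted p = 0.00102), where it stood at 1.91 in CO and 1.74 in N2.

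KRS1 (YDR037W), the lysyl-tRNA synthetase, fell by 1.18 ± 0.19 against air (limma adjusted p = 0.00449) and at 24 h it stood a further -0.89 ± 0.25 from the earlier times (adjusted p = 0.0118). Of the mitochondrial carriers that export 2-oxoadipate and 2-oxoglutarate, ODC2 (YOR222W) rose over air by 0.66 ± 0.18 (limma adjusted p = 0.0211) and ODC1 (YPL134C) rose at 24 h by 1.85 ± 0.26 (adjusted p = 0.000179).

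On the transport side, LYP1 (YNL268W), the lysine permease of the plasma membrane, stood at -0.16 ± 0.11 against air (limma adjusted p = 0.25) and at 0.42 ± 0.18 for 24 h against earlier (adjusted p = 0.0718). CAN1 (YEL063C), the arginine permease, which also carries lysine, rose at 24 h by 0.66 ± 0.18 (limma adjusted p = 0.0091). Of the vacuolar carriers for basic amino acids, VBA2 (YBR293W) rose over air by 0.65 ± 0.16 (limma adjusted p = 0.0168) and at 24 h by 0.92 ± 0.27 (adjusted p = 0.0163), while VBA1 (YMR088C) at 24 h fell by 0.56 ± 0.16 (adjusted p = 0.014). IDP1 (YDL066W), a mitochondrial isocitrate dehydrogenase that makes 2-oxoglutarate, rose at 24 h by 0.72 ± 0.22 (limma adjusted p = 0.0185), and RTG3 (YBL103C), a factor of the retrograde pathway that serves 2-oxoglutarate supply, fell by 1.23 ± 0.21 (adjusted p = 0.000695).

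Several of these calls were lost under other settings. For 24 h, quantile normalization kept that of ODC1 and ended the other 8 (adjusted p = 0.0729 to 0.975), with LYS5 then at 0.08, KRS1 at -0.01, VBA1 at -0.13 and VBA2 at 0.21. The 24 h call of GCN4 was also lost with median centring, array weights or time means or without 15 min (highest adjusted p = 0.112). Time means ended the 24 h calls of CAN1, IDP1, KRS1 and VBA1 (0.0624 to 0.103), and array weights ended those and that of VBA2 (0.0528 to 0.102). Against air, subtraction of the 15 min ratios turned GCN4 to -0.45 (adjusted p = 0.0589) and ended the calls of LYS5, ODC2 and VBA2 (0.142, 0.196 and 0.104). LYP1 was called against air with array weights (-0.24, adjusted p = 0.0179) or without 24 h (-0.23, 0.0451), and for 24 h with median centring (0.51, 0.0317). The call against air of ODC2 without 30, 45 or 60 min was lost (up to 0.0592), as was that of VBA2 without 120 min (0.0561), while KRS1 was called against air in every setting run.

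Between the gases, 4 of the 15 were at least 2-fold apart at 1 time each, a share near the 27.8% of all ORFs, so the values are given as a description. RTG2 (YGL252C), the sensor of the retrograde pathway, was higher in CO at 60 min (1.11), ARO8 (YGL202W), an aminotransferase that can act on 2-oxoadipate, was higher in N2 at 45 min (-1.04), and RTG1 (YOL067C) and MKS1 (YNL076W), an activator and a negative regulator of the same pathway, were higher in N2 at 24 h (-1.38 and -1.13).

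Other amino acid pathways give a scale for the ratios of the lysine genes. The 2 of 8 lysine genes called lower over the 6 times were a share near that of all ORFs. Over the 6 times 3 of 9 arginine genes, 5 of 10 branched-chain genes, 8 of 12 aromatic genes, 1 of 6 histidine genes and 4 of 5 threonine and methionine genes were called lower, with medians of -0.57, -1.005, -0.72, 0.00 and -0.91, where 20.9% of all ORFs were called lower. At 24 h against earlier the counts were 7, 6, 8, 4 and 2, with medians of -1.19, -0.99, -0.74, -1.03 and -0.58, against 25.1% of all ORFs. Called higher were BAT2, a branched-chain aminotransferase gene, over the 6 times (1.09, limma adjusted p = 0.0421) and at 24 h (2.48, adjusted p = 0.00013), and TRP1, of tryptophan synthesis, at 24 h (2.985, adjusted p = 2.88e-06), both named with their values known. The lysine genes, with 2 of 8 and a median of -0.37 over the 6 times, and 5 of 8 and -1.01 at 24 h, were thus not the farthest list in either comparison. Whether the lists differ from each other was not tested.

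**Figure D4:**
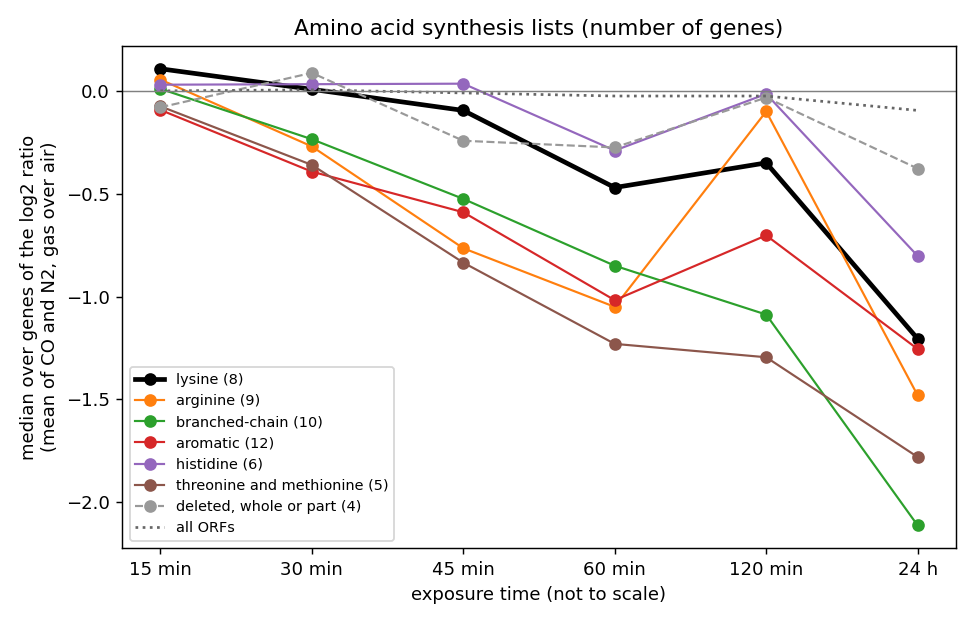
Median over the genes of each amino acid synthesis list of the log2 ratio of gas over air, with CO and N2 averaged (vertical axis), against exposure time in order, not to scale (horizontal axis); the number of genes is in the legend, the dashed grey line shows the genes deleted in whole or in part and the dotted line all ORFs. The lysine list goes from 0.11 at 15 min to -0.47 at 60 min and -1.21 at 24 h, when the branched-chain list stands at -2.11.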

How the data were processed

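The authors deposited 1 log2 ratio per ORF and array, to 2 decimals; per the labels' dyes it is taken as gas (Cy5) over air (Cy3). The sources used here do not give the log base, platform, probes, background correction, normalization or any sharing of air samples between the gases. ORFs were named through R64 locus tags (5651 of 6150 matched); no coordinates were used. limma 3.58.1 in R 4.3.3 (lmFit, eBayes) was fitted on the 5672 ORFs with 12 values, with Benjamini-Hochberg adjustment and a threshold of 0.05. Both gases against air used 6 time means (5 residual degrees of freedom). The time contrasts used 12 arrays with period (15 and 30 min, 45 min, 60 and 120 min, 24 h, earlier periods weighted equally) and gas (7 residual degrees of freedom). CO against N2 has 1 array a side and no test. The p-values against air measure the spread between times, not between cultures. Those of the time contrasts also measure the spread between the gases, which is the only spread within the 45 min and 24 h periods. The fits were tested on simulated data with independent noise on each array. Correlation between the gases of a time was not simulated, so that run cannot show how the p-values behave under it.

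The labels give both gases air cells of the corresponding time, and deviations from the gas means correlated at r of 0.255 to 0.776 at matching times, though CO at 30 and 45 min was closest to N2 at 15 min.

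The members and lists were chosen with earlier results of these data known. Named were all members, GCN4, LYP1, neighbouring genes called or 2-fold apart, up to 2 genes of each other list, and the 6 most alike profiles. A gene next to the pathway is not reported here and was left out of the list counts. Alternatives were median centring, quantile normalization, ORFs with at least 10 values, array weights, each time left out, blocks by time, unblocked arrays, time means and subtraction of the 15 min ratios.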

Additional observations from a re-analysis of the deposited data

Results flagged for a closer look

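Within a gas, the highest or lowest of the 6 times was compared with its nearest neighbour, relative to the whole range, for the 8 lysine genes. In 4 of 16 such series the 24 h array stood apart by this measure (beyond Dixon's 95% critical value). Chance flags about 1 in 20, but over all ORFs the 24 h array stood apart in 12.3% of the CO series and 17.2% of the N2 series. In the 4 series of the members it was the lowest value. Over all ORFs it stood apart as the lowest in 6.79% of the CO series and 7.62% of the N2 series. The values were -2.11 for LYS12 in CO, -1.81 for LYS12 in N2, -1.98 for LYS2 in N2 and -1.52 for LYS1 in N2. The times are different exposures and not replicates, and 24 h is far from the other 5 in time.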

How the results depend on the processing

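Over both gases against air, 2151 ORFs were called, and 958 with the 15 min ratios subtracted, 3912 with time as a replicate block and 1219 to 2668 with 1 time left out (1350 without 45 min, 1256 without 60 min, 1219 without 120 min). Members called were 2, and 1, 5 and 0 to 2 under the same settings. For 24 h against earlier, 2703 ORFs became 1675 with array weights, 727 with quantile normalization and 1676 with time means, and 5 members became 2 with quantile normalization and 3 with time means; the contrast cannot be formed without 24 h. For 60 and 120 min against 15 and 30 min, 722 ORFs became 1377 with array weights, 151 with quantile normalization and 0 to 1007 with 1 time left out (0 without 15 min, where 712 had an unadjusted p under 0.05, 378 without 30 min and 52 without 120 min); 4 members became 0 with quantile normalization, 2 with time as a random replicate block and 0 to 4 with 1 time left out. The block by time changed no other count of members or ORFs by over 1.5 times. The members' median CO minus N2 at 15 min was 0.47 with quantile normalization instead of 0.20. Among the 8 members signs turned only for values not called: LYS20 against air was -0.042 and LYS21 -0.64 with the 15 min ratios subtracted, and with 1 time left out LYS20 lay between -0.037 (without 60 min) and 0.25; for 60 and 120 min, LYS20 lay between -0.45 (without 60 min) and 0.73 and LYS14 between -0.01 (without 120 min) and 0.43. GCN4 against air, called at 0.57, was -0.45 with the 15 min ratios subtracted, and LYP1, not called, 0.12. The cause was not tested. The sources used here give no signal over background, so no limit from it can be set.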

Other observations

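At 24 h several other amino acid genes were higher in CO than in N2, as LYS20 and LYS21 were. At least 2-fold higher in CO were 3 of 9 arginine genes, 3 of 10 branched-chain genes and 2 of 6 histidine genes, against 4.02% of all ORFs; 1 of 6 histidine genes, HIS6 (-2.21, named with its value known), was at least 2-fold higher in N2, as were 11.8% of all ORFs. The 3 lists had median differences of 0.78, 0.48 and 0.43 against -0.06. In the aromatic list 0 of 12 were at least 2-fold higher and 2 lower, and in the threonine and methionine list 0 of 5 either way (medians of 0.11 and -0.21). Each value rests on 1 array per gas and was not tested. The 24 h arrays had the widest ratios of the series. With quantile normalization LYS20 and LYS21 stood at 0.71 and 1.11 at 24 h, instead of 1.15 and 1.81. The counts and medians of the lists are given without that setting.

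Averaged over 30, 45 and 60 min, the widest differences of these lists were those of ARG3 (-0.94) and ARG4 (-0.70), ILV3 (0.65) and ILV2 (-0.42), TRP4 (-0.88) and ARO4 (0.69), HIS1 (-0.71) and HIS7 (-0.41), and HOM3 (-0.56) and HOM2 (0.36). With quantile normalization HOM3 stood at 0.49. LYS20 stood at 0.85 and LYS21 at -0.47 on this measure.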
